A study of Mus musculus with 10 samples.

Results

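The genes beside the targeted C5ar1 locus of the mouse were examined in splenic dendritic cells (DCs) with and without the receptors C3ar1 and C5ar1. Members were all genes with a probe set of a single symbol whose start lies on chromosome 7 within 2.5 Mb of the C5ar1 start, leaving out C5ar1 itself and its neighbour C5ar2. The start was taken as the lowest coordinate of the gene on either strand. This rule uses position alone, and it gave 71 genes of the 22180 measured, 25 on the side of lower coordinates and 46 on the side of higher coordinates. Of the 71, 31 exceeded the median of all probe sets on at least 2 of the 10 arrays and were tested, among 13371 genes tested in all.

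The wild-type (WT) mice and the C3ar1-/-C5ar1-/- mice (double knockout, DKO) received either 100 µg CpG, unmethylated DNA sensed by Tlr9, or vehicle, and CD11c+ DCs were taken from the spleen with magnetic beads 4 h later. Each sample had 1 Affymetrix Mouse Gene 2.0 ST array, with 2 arrays per genotype for vehicle and 3 per genotype for CpG. Both receptor genes were disrupted in every DKO sample, so an effect of either one alone cannot be told apart from that of the other. The sources used here do not give the strain background, the number of backcrosses, the design of the targeted alleles, the age of the mice or the route of injection. The labels do not say whether the samples of a group came from separate animals, and the p-values then measure the spread between these samples, which may be technical.

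When a gene is disrupted by homologous recombination, the DNA on both sides of it is inherited with the targeted allele through backcrossing, and can carry the variants of the strain in which the targeting was made. Genes that sit close to a targeted locus are therefore routinely examined beside the targeted gene itself. The region around C5ar1, which encodes a receptor for the complement fragment C5a, mixes widely expressed genes of transcription, SUMO conjugation, endocytosis and amino acid uptake with clusters of tandem gene copies: the sulfotransferases Sult2a, the oocyte homeobox genes Obox, and the Ceacam and Psg genes of cell adhesion and of the placenta.

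The stretches around the starts of C5ar1 and of Tmem160, the member that differed most firmly between genotypes, are shown because they fix the landmark and the gene on which the results turn. Both were taken from RefSeq (assembly GRCm38.p6), run 5′ to 3′ on the gene's own strand, and hold 250 bases before and 50 bases after the start. Capitals mark a CCAAT sequence, here read on the opposite strand. The C5ar1 window lies at chr7:16259289-16259588 on the minus strand and that of Tmem160 at chr7:16452529-16452828 on the plus strand.
C5ar1: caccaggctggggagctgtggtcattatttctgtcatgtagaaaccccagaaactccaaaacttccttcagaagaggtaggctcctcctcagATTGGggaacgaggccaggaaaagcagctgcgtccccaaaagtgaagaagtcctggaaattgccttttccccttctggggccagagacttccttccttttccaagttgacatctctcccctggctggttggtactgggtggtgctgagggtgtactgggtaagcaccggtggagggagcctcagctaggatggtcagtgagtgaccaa
Tmem160: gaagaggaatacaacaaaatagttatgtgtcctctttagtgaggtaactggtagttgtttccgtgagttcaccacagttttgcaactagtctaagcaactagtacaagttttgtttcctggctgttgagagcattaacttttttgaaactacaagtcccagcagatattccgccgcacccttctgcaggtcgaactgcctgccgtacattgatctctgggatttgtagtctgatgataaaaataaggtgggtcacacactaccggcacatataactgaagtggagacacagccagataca
The motifs searched, on both strands, were TATAAA, then CCAAT, then GGGCGG, and no match of one overlapped another in either window. None of the 3 was found in the Tmem160 window, which held 6 CG pairs, and the C5ar1 window held 1 of the 3, CCAAT, with 3 CG pairs. Of 27025 promoters of the same length, 14.2% held TATAAA, 37.9% held CCAAT and 35.9% held GGGCGG. Of the 25 tested members with an entry, 3, 10 and 15 held these letters, and the median number of CG pairs was 17 in them against 7 over all promoters. The 25 had passed the signal filter and the promoters as a whole had not been filtered. The shares are therefore not set against a like background and are no result about this region. The table had an entry for 56 of the 71 members.

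Array medians lay between 5.50 and 5.56 on the log2 intensity scale, and pairs of arrays within a group (8 pairs) had correlations of 0.964 to 0.989 across the tested genes, which are not independent replicates. Defining genes of DCs were high on every array: Itgax, which encodes CD11c, read 10.7 to 11.9 and the MHC class II gene H2-Ab1 read 13.4 to 13.7. Markers of other cells differed between arrays. The mean of 20 tested of 22 neutrophil genes was 7.09 to 8.81 in WT and 5.73 to 7.26 in DKO arrays, and the mean of 22 splenic macrophage genes was 9.77 to 10.3 in WT and 8.29 to 10.1 in DKO arrays. The macrophage mean was lowest in DKO unstimulated 2 (8.59) and DKO CpG 3 (8.29). Signal from the Y-linked genes Eif2s3y, Kdm5d and Uty averaged 7.33 to 7.93 in 3 DKO arrays (DKO unstimulated 1, DKO CpG 1 and DKO CpG 2) and 3.21 to 3.68 in the other 7. Xist, a transcript of female cells, read 4.3 to 4.9 in the same 3 arrays and 10.4 to 10.8 in the other 7. By these genes the 3 DKO arrays read as male and every WT array as female. Sex is therefore partly confounded with genotype, and the 2 cannot be fully told apart. In such bulk samples fewer cells of a type and less RNA per cell cannot be told apart.

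The targeted genes were lower in the libraries labelled DKO, although where the probes lie relative to the deleted parts is not known here. C5ar1 measured 5.75 and 6.02 in WT without stimulation, 6.64, 7.32 and 5.51 in WT after CpG, 4.42 and 4.56 in DKO without stimulation, and 4.99, 4.72 and 4.74 in DKO after CpG. Every DKO array lay below every WT array. The difference averaged over stimulation was -1.53 ± 0.27 (SE) and did not pass limma's test over all genes (adjusted p = 0.0786). All 5 DKO arrays lay below the array medians, so the DKO level may be near background and the size of the difference is uncertain. With the neutrophil level as a covariate it was -0.74 (adjusted p = 0.614). That covariate was the mean of S100a8, S100a9, Retnlg, Ngp, Cxcr2 and Csf3r, each centred over the arrays, a shorter list than that above. It was 0.28 to 2.25 in WT and -2.24 to 0.205 in DKO arrays, without overlap, so fits with it cannot well separate it from genotype. The C5ar1 difference passed with a block for title series (-1.40, 0.0442), with the Y-linked signal (-1.54, 0.0242) and without WT CpG 3 (-1.78, 0.00250). C3ar1, on another chromosome, read 5.80 to 6.59 on the WT arrays and 5.27 to 5.64 on those of DKO (-0.63 ± 0.12, limma adjusted p = 0.0888), again without overlap. C5ar2, the other C5a receptor, starts 0.01 Mb away and was lower in DKO too, by -0.73 ± 0.10 averaged over stimulation (limma adjusted p = 0.0315, 5 of 5 DKO arrays below all WT arrays). That adjusted p was between 0.0656 and 0.198 when any one of 7 of the 10 arrays was left out, and between 0.0325 and 0.0483 without DKO CpG 1, DKO CpG 3 or WT CpG 3. Over all 19 alternatives the averaged C5ar2 difference was -0.81 to -0.57, with limma adjusted p-values of 0.00475 to 0.365, and passed in 10.

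Most genes close to C5ar1 were measurable in DCs, and most of those farther out in the window were not. Within 0.5 Mb of the start, 20 of 27 genes were tested, from 0.5 to 1 Mb 9 of 18, and from 1 to 2.5 Mb 2 of 26. The 31 tested members had mean log2 intensities of 5.31 to 11.2 (median 6.74), and the 40 others 2.41 to 5.22 (median 3.93), below or near the array medians. Most untested members belong to the tandem families. None of 6 Obox genes was tested, 1 of 12 Psg genes, 1 of 6 Sult2a genes and 2 of 9 Ceacam genes. The untested members outside these families were Crx, Crxos, Ehd2, Gng8, Ccdc8, Pnmal1, Igfl3, Mill1, 9330104G04Rik, Gm9519 and Gm5155. At the edges of the window stood Sult2a1 (2.45 Mb away, mean 2.67) and Psg22 (2.47 Mb, mean 3.66) inside, and Sult2a2 (2.51 Mb, mean 3.68) and Sycp1-ps1 (2.54 Mb, mean 2.60) outside, none of them tested. Intensities of different probe sets are not amounts and were not ranked against each other.

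**Figure D1:**
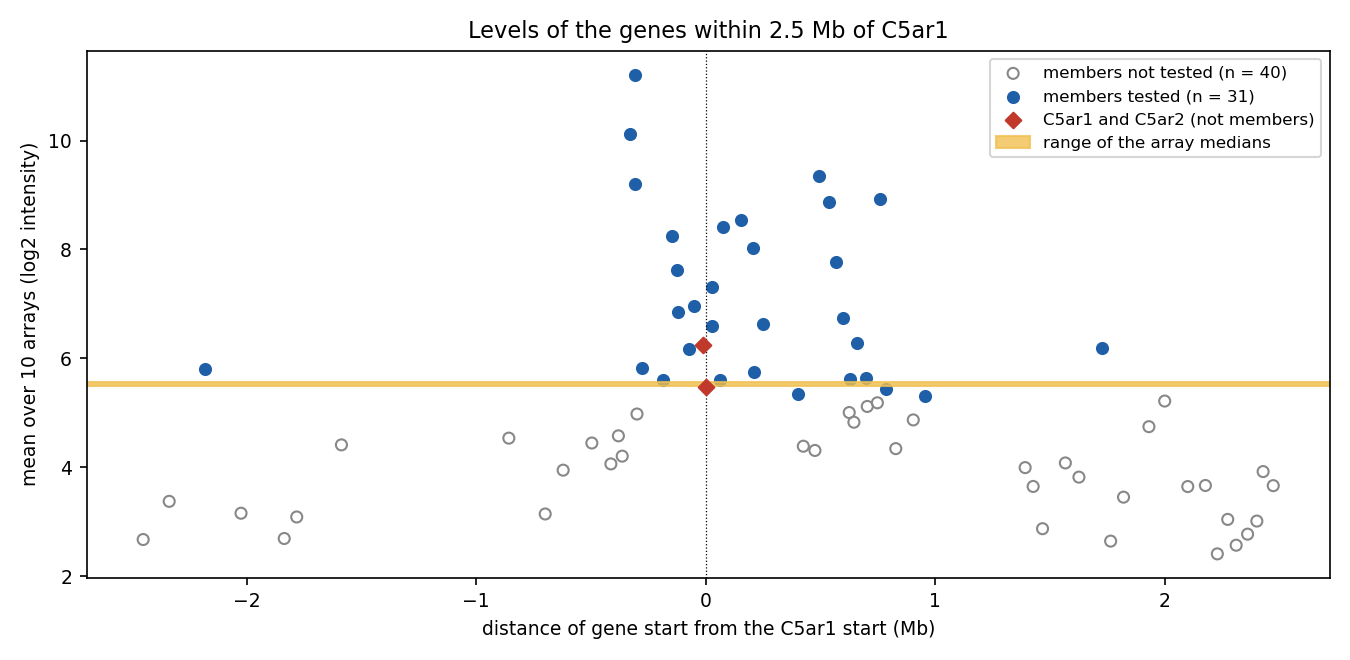
Mean log2 intensity over the 10 arrays (vertical axis) of each gene in the window against the distance of its start from the C5ar1 start in Mb (horizontal axis), with tested and untested members marked apart and the range of array medians shown. Tested members crowd within 1 Mb of C5ar1, where 29 of the 31 lie.

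Genotype was compared without stimulation and after CpG, 2 comparisons that share no array, and averaged over both. Tmem160 rose in DKO DCs and was the 1 member called: its level was 1.54-fold higher averaged over stimulation, and 1.67-fold higher after CpG. Sae1, a subunit of the SUMO-activating enzyme, was higher by a like amount and Slc1a5, a transporter of glutamine and other neutral amino acids, was lower, but neither passed the test over all genes. The other 28 tested members did not pass it either, and 25 of the 31 differed by less than 0.3 on the log2 scale averaged over stimulation. None of the 31 was called without stimulation (4 had an unadjusted p under 0.05), when 0.00748% of all genes were called. After CpG 1 of 31 was called (9 had an unadjusted p under 0.05), against 0.120% of all genes (0.0524% higher and 0.0673% lower in DKO). Averaged over stimulation it was 1 of 31 again (6 with an unadjusted p under 0.05), against 0.0972% of all genes (0.0374% higher and 0.0598% lower). At an unadjusted p under 0.05 stood 4.63%, 14.3% and 11.6% of all genes in these comparisons. The members' differences had no common direction, with 18 above 0 and 13 below, a median of 0.04 and a median size of 0.125, against 0.01 and 0.10 over all genes.

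Tmem160, a small membrane protein of mitochondria, starts 0.21 Mb from C5ar1 on the side of higher coordinates. Its log2 intensity was 7.85 and 7.64 in WT without stimulation and 7.71, 7.66 and 7.67 in WT after CpG. In DKO it was 8.18 and 8.31 without stimulation and 8.56, 8.28 and 8.44 after CpG. The lowest DKO array lay above the highest WT array, and the 3 WT arrays after CpG differed by less than the arrays of any other group. The difference (DKO minus WT) was 0.50 ± 0.14 (SE) without stimulation (95% interval 0.20 to 0.80, limma adjusted p = 0.862), 0.74 ± 0.11 after CpG (0.50 to 0.99, limma adjusted p = 0.0440) and 0.62 ± 0.09 averaged (0.43 to 0.81, limma adjusted p = 0.0315). An exact permutation of the genotype within stimulation gave p = 0.0167, two-sided, which is the smallest its 120 arrangements allow. Any gene whose genotypes do not overlap in both states, in the same direction, gets this value, and 4.94% of all genes were so. It is not adjusted and adds nothing to the lack of overlap, here or for other members.

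The size of the Tmem160 difference held in every alternative tried while its call did not. Averaged over stimulation it was 0.57 to 0.67 over 19 alternatives, with limma adjusted p-values of 0.00665 to 0.317, and passed in 8. Leaving out any one array kept it at 0.57 to 0.67, with an adjusted p of 0.0341 without DKO CpG 1 and 0.0422 without WT CpG 3, and of 0.0564 to 0.215 without each of the other 8. After CpG the adjusted p was 0.0343 without DKO CpG 1 and 0.0688 to 0.150 without each of the other 9. With neutrophil marker level added as a covariate, the averaged difference was 0.58 (adjusted p = 0.317), with the macrophage level 0.60 (adjusted p = 0.0594) and with the Y-linked signal 0.65 (adjusted p = 0.00665). Samples whose titles are numbered below 20 gave 0.43 without stimulation and 0.73 after CpG, and the single CpG pair numbered above 20 gave 0.77. The value of 0.43 rests on a single DKO array, and the DKO arrays numbered below 20 are those with the Y-linked signal.

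Sae1, which starts 0.07 Mb from C5ar1, was the fourth nearest tested member on its side. It measured 8.13 and 8.37 in WT without stimulation, 7.90, 8.13 and 7.95 in WT after CpG, 9.05 and 8.58 in DKO without stimulation, and 8.58, 8.67 and 8.79 in DKO after CpG. As for Tmem160, every DKO array lay above every WT array. The difference was 0.56 ± 0.17 (SE) without stimulation (limma adjusted p = 0.904), 0.69 ± 0.14 after CpG (0.0713) and 0.62 ± 0.11 averaged (95% interval 0.38 to 0.87, 0.0777), so it was not called. It passed with a block for title series (adjusted p = 0.0382 after CpG and 0.0481 averaged), after CpG with the macrophage covariate (0.0494) and averaged with the Y-linked covariate (0.0379). The exact permutation p was 0.0167, the smallest possible, which restates the lack of overlap. Sae1 and Tmem160 were the 2 of 31 tested members whose genotypes did not overlap over all 10 arrays, against 0.778% of all genes. Below title number 20 Sae1 differed by 0.80 without stimulation and 0.61 after CpG, and by 0.84 in the single CpG pair above it. The value of 0.80 rests on a single DKO array, DKO unstimulated 1, without which the difference without stimulation was 0.33. The DKO arrays below number 20 are those with the Y-linked signal.

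Slc1a5, 0.53 Mb away on the same side, went the other way. It measured 9.63 and 9.39 in WT without stimulation and 8.80 and 8.60 in DKO without stimulation. After CpG it measured 8.77, 9.0 and 8.86 in WT and 8.58, 8.59 and 8.50 in DKO. Every DKO array lay below every WT array of the same stimulation, and the gap was wider without stimulation, where the WT level was highest. The difference was -0.81 ± 0.14 (SE) without stimulation (limma adjusted p = 0.280), -0.32 ± 0.11 after CpG (0.230) and -0.57 ± 0.09 averaged, where the adjusted p of 0.05002 lay just above the threshold. The exact permutation p of the averaged difference was 0.0167, the smallest possible, which restates the lack of overlap within each state. It ranged over alternatives from -0.65 to -0.40 and passed in 5, among them the fit without DKO CpG 1 (adjusted p = 0.0425), and the value of -0.40 came from averaging the gene's probe sets. The second probe set read 6.30 to 6.82 over the arrays and differed by -0.23, so the pair disagreed in size. Slc1a5 was the 1 member with an unadjusted p under 0.05 for the difference of the CpG effects (0.49 ± 0.18, limma adjusted p = 0.813), a comparison in which 0.00748% of all genes and none of the 31 members were called.

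**Figure D2:**
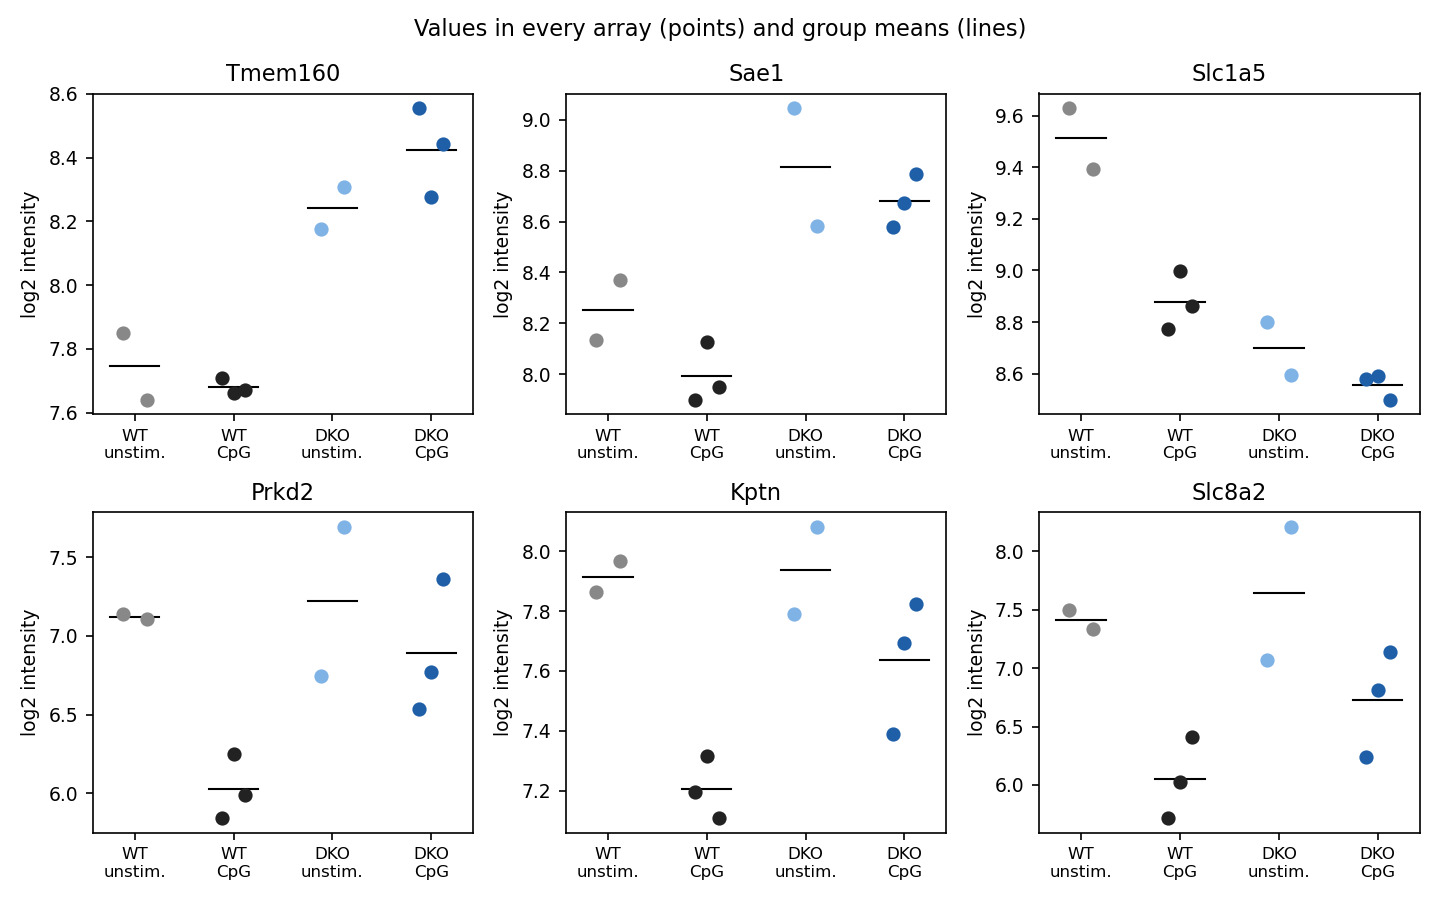
Log2 intensity (vertical axis) on each of the 10 arrays for the members Tmem160, Sae1, Slc1a5, Prkd2, Kptn and Slc8a2, by group along the horizontal axis (WT and DKO, unstimulated and CpG), with the group mean as a line. Tmem160 and Sae1 are higher and Slc1a5 is lower in DKO arrays of the same stimulation.

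Separation of the genotypes was counted by overlap too. Without stimulation 9 of 31 members did not overlap between genotypes (Selenow, Zfp541, Napa, Inafm1, Sae1, Tmem160, Slc1a5, Ppp5c and Ceacam11), against 34.2% of all genes, and after CpG 9 of 31 (Sult2a3, Kptn, Sae1, Tmem160, Ceacam-ps1, Slc1a5, Strn4, Prkd2 and Ppp5c), against 19.2%. In both states and in the same direction it was 4 of 31, Sae1, Tmem160, Slc1a5 and Ppp5c, against 4.94%. An averaged difference beyond 0.5 was seen in 3 of 31, Sae1, Tmem160 and Slc1a5, against 2.84%. The 4 genes apart in both states lie on the side of higher coordinates, as do 20 of the 31 tested members. They start at 0.07, 0.21, 0.53 and 0.76 Mb, and other tested members lie between them.

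The nearest genes were described whatever their values. On the side of lower coordinates come Dhx34, a helicase of nonsense-mediated mRNA decay, Meis3, a homeobox factor, Slc8a2, a sodium-calcium exchanger, and Kptn, a subunit of a complex that restrains mTORC1. On the other side come Ccdc9 and Inafm1, whose annotated genes overlap, Bbc3, the cell death gene known as Puma, and Sae1. Dhx34 differed by -0.13 averaged over stimulation (95% interval -0.35 to 0.09), Ccdc9 by -0.01 (-0.26 to 0.24), Inafm1 by -0.09 (-0.30 to 0.11) and Bbc3 by 0.04 (-0.12 to 0.20). Kptn differed by 0.23 (-0.01 to 0.46), Meis3 by -0.26 (-0.53 to 0.01) and Slc8a2 by 0.45 (-0.08 to 0.98), the widest interval of these genes. Bbc3 read 5.51 to 5.68 on all 10 arrays, close to the array medians, where little change can be seen. Meis3 measured 6.36 and 6.24 (WT) and 6.26 and 6.09 (DKO) without stimulation, and 6.49, 6.13 and 6.40 (WT) and 6.24, 5.69 and 5.90 (DKO) after CpG, with overlap in both states and a difference of -0.40 after CpG (limma adjusted p = 0.272).

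Kptn, Slc8a2 and Prkd2, a protein kinase D that is activated downstream of diacylglycerol, shared a pattern over the arrays. After CpG Prkd2 measured 5.84, 6.25 and 5.99 in WT and 6.53, 6.77 and 7.36 in DKO, a difference of 0.86 ± 0.25 (SE, limma adjusted p = 0.162). Kptn measured 7.20, 7.31 and 7.11 in WT and 7.39, 7.69 and 7.83 in DKO after CpG, a difference of 0.43 ± 0.14 (0.188). Slc8a2 measured 5.72, 6.03 and 6.41 in WT and 6.24, 6.82 and 7.13 in DKO, a difference of 0.68 ± 0.30 (0.342). Without stimulation the genotypes overlapped for all 3, and after CpG for Slc8a2. DKO CpG 3 was the highest DKO array after CpG for each of them, and DKO unstimulated 2 was the higher of its pair, at 7.69 against 6.75 for Prkd2, 8.08 against 7.79 for Kptn and 8.21 against 7.07 for Slc8a2. These are the arrays with the lowest macrophage means and the lowest neutrophil means (5.73 and 5.81), and both carry titles above 20. They are also the only DKO arrays without the Y-linked signal, and these features cannot be told apart here. With the neutrophil level as a covariate, which does not overlap between genotypes, the CpG difference of Prkd2 was 0.36, that of Kptn 0.29 and that of Slc8a2 -0.09. None of these passed, and none of the 3 passed with the macrophage level. With the Y-linked signal the values were 1.36, 0.61 and 1.21 and all 3 passed (limma adjusted p = 0.000958, 0.0259 and 0.0125). That fit called 5.98% of all genes after CpG, against 0.120% without the covariate. No WT array held the signal, so the genotype differences of that fit lean on DKO unstimulated 2 and DKO CpG 3. With the title series as a block, a fit that called 2.21% of all genes, Prkd2 passed too (0.0484). The part of cell content in these differences was not tested further.

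The remaining members are given by role. Of the 3 tested genes listed under vesicle traffic, Napa, which recycles SNARE complexes, differed by -0.13 averaged over stimulation. Ap2s1, the small subunit of the AP-2 endocytic adaptor, differed by 0.03. The list also held Kptn (0.23), described above by its complex that restrains mTORC1 and not as a gene of vesicle traffic. None of the 3 was called. Of 7 tested genes of transcription and chromatin none was called, with a median of -0.03 and a range from -0.26 (Meis3) to 0.22 (Bicra, a subunit of SWI/SNF complexes). Zc3h4, which curbs transcription of noncoding RNA, differed by 0.11, Npas1 by -0.03, Hif3a, a hypoxia-inducible factor subunit, by -0.14, Dact3, a modulator of Wnt signalling, by -0.05 and Zfp541 by 0.15.

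Of 6 tested signalling genes none was called by genotype, with a median of 0.04. Ppp5c, a serine/threonine phosphatase that works with Hsp90, measured 9.65 and 9.35 (WT) and 9.34 and 8.78 (DKO) without stimulation, and 8.77, 8.80 and 8.75 (WT) and 8.49, 8.73 and 8.61 (DKO) after CpG. Its DKO arrays lay below the WT arrays in both states, by margins that were small in part, and its averaged difference was -0.30 ± 0.12 (SE, limma adjusted p = 0.361, exact permutation p = 0.0167). Arhgap35 differed by 0.02, Strn4, a scaffold of phosphatase 2A, by 0.05 and Ptgir, the prostacyclin receptor, by 0.04.

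The 4 tested genes of metabolism, transport and protein maturation held the 1 call. Besides Tmem160, Sae1 and Slc1a5 they include Selenow, a selenoprotein of redox control, 0.33 Mb away on the other side. Selenow measured 10.05 and 10.10 (WT) and 9.84 and 9.73 (DKO) without stimulation, and 10.23, 10.46 and 10.48 (WT) and 10.28, 9.95 and 10.06 (DKO) after CpG. The genotypes were apart without stimulation and overlapped by 1 array after CpG, and the averaged difference was -0.29 ± 0.09 (SE, limma adjusted p = 0.301, exact permutation p = 0.0333). None of the 3 tested genes of RNA decay and cell death (Dhx34, Ccdc9 and Bbc3) was called, nor any of 5 tested genes of tandem families, whose differences ran from -0.12 (Psg29) to 0.23 (Sult2a3). Sult2a3 was highest in DKO CpG 3, at 6.54, while the other 9 arrays lay between 5.29 and 5.84. Nop53, a factor of ribosome assembly, read 11.04 to 11.38 and differed by 0.12, and the small nucleolar RNA Snord23, annotated inside it, differed by -0.10.

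**Figure D3:**
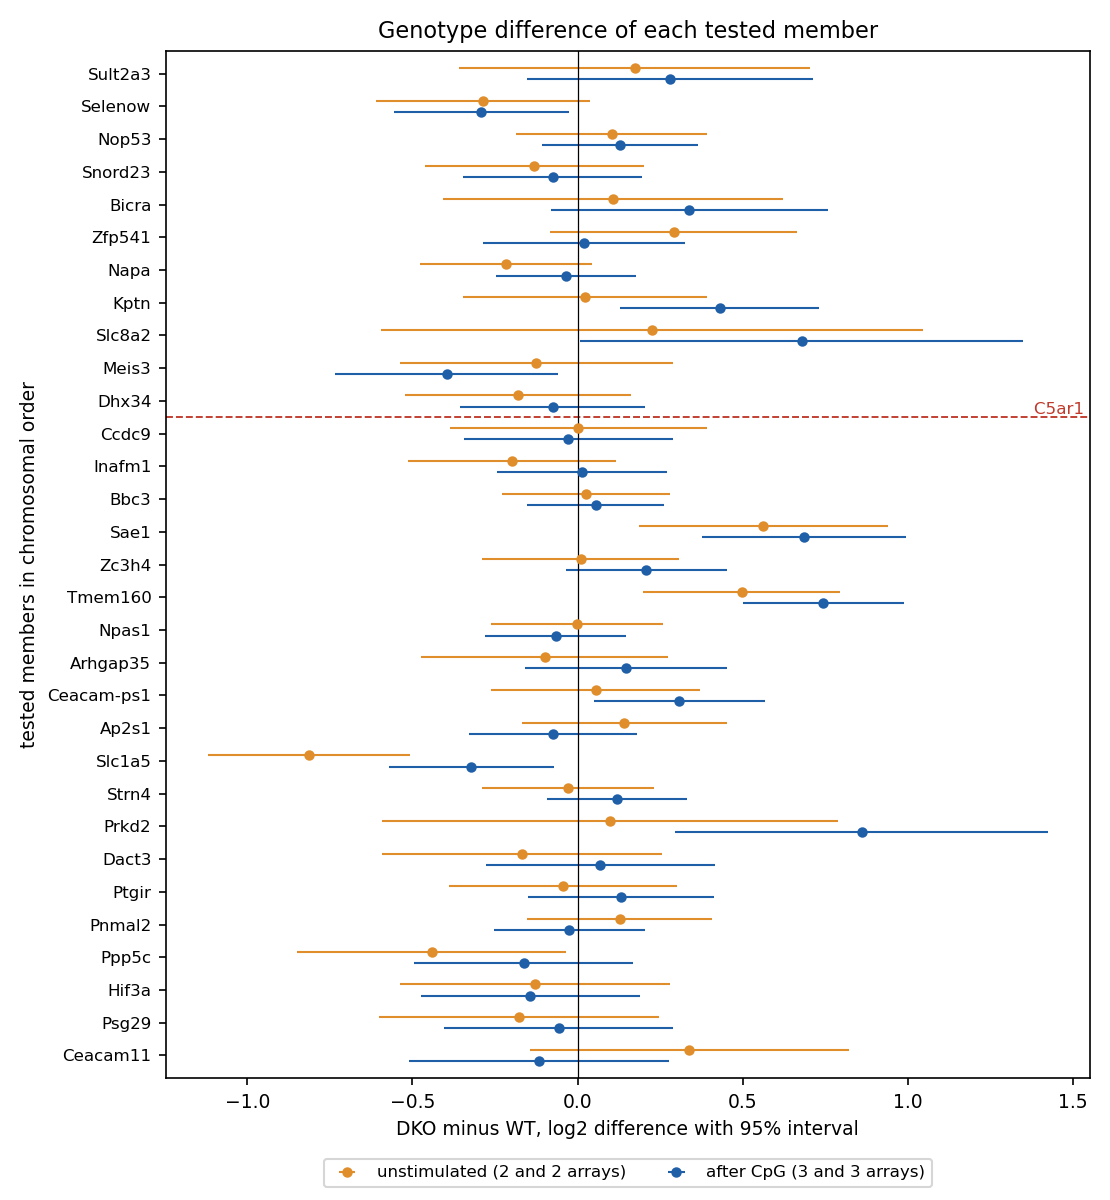
Difference DKO minus WT in log2 intensity (horizontal axis, points with 95% intervals) of each tested member in chromosomal order (vertical axis), without stimulation and after CpG, with the place of C5ar1 marked. The Tmem160 and Sae1 intervals lie above 0 and the Slc1a5 intervals below 0 in both states, while of the 4 nearest genes on the lower side all include 0 without stimulation and 3 (Meis3, Slc8a2 and Kptn) exclude it after CpG, with none of them called.

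The counts along the rest of the chromosome are given without a test of clustering. Within the window Tmem160 was called beside the landmark C5ar2. From 2.5 to 5 Mb away, none of 68 tested genes was called by limma in any genotype comparison, and from 5 to 10 Mb none of 63. An unadjusted p under 0.05 was seen in 15 of the 68 and 6 of the 63 without stimulation, against 4.63% of all genes, in 9 and 10 after CpG, against 14.3%, and in 16 and 13 averaged, against 11.6%. Beyond 10 Mb 5 of 914 were called averaged over stimulation, against 0.0972% of all genes, and 5 after CpG, against 0.120%, all lower in DKO. Of those genes 4 (Tarm1, Pirb, Gm15448 and Gm10693) start at -12.76 to -12.39 Mb, on the side of lower coordinates. Without stimulation 1 of the 914 was called, Gm15448 (-4.69, limma adjusted p = 1.6e-06), against 0.00748% of all genes. For the difference of the CpG effects it was 1 again, Tarm1 (-2.25, limma adjusted p = 0.0490), against 0.00748%. The median size of the averaged difference was 0.126 within 0.5 Mb, 0.118 from 0.5 to 1 Mb, 0.129 from 2.5 to 5 Mb and 0.102 beyond 10 Mb. Around the other targeted gene, C3ar1, 70 of 102 genes within the same distance were tested and none was called by limma for genotype. Of these 70, 10, 13 and 18 had an unadjusted p under 0.05 without stimulation, after CpG and averaged. Over all genes the shares were 4.63%, 14.3% and 11.6%. The median size was 0.157 against 0.10 over all genes.

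In WT DCs 5 of the 31 members fell with CpG, Kptn, Slc8a2, Slc1a5, Prkd2 and Ppp5c, and no member was called higher. Over all genes 21.6% were called (13.3% lower and 8.24% higher), so the members' share is near the background and is no result about them as a group. Of the 31 differences 12 were above 0 and 19 below. Slc8a2 fell by 1.36 on the log2 scale (± 0.34 SE, limma adjusted p = 0.0162), Prkd2 fell by 1.09 (± 0.28, 0.0199), Ppp5c fell by 0.73 (± 0.17, 0.0111), Kptn fell by 0.71 (± 0.15, 0.00775) and Slc1a5 fell by 0.63 (± 0.13, 0.00540). With the mean of its probe sets Slc1a5 changed by -0.33 and was not called (adjusted p = 0.100). In each case the 3 WT arrays after CpG lay below both WT arrays without it. In DKO the same genes changed by -0.91, -0.33, -0.45, -0.30 and -0.14, and none of the 31 was called by limma (5 had an unadjusted p under 0.05), against 10.3% of all genes (4.54% higher and 5.76% lower). The change with CpG was not shown to differ between genotypes for any of the 5, with limma adjusted p-values of the difference from 0.813 to 0.956. The WT arrays without stimulation serve both this comparison and the genotype comparison above, so the Slc1a5 values in the 2 are not independent.

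Single arrays decided several of these calls. Without WT unstimulated 1 only Kptn passed, with Slc1a5 at -0.52 (adjusted p = 0.0684), Ppp5c at -0.58 (0.119), Prkd2 at -1.08 (0.113) and Slc8a2 at -1.28 (0.113). Without WT unstimulated 2 Kptn (-0.66, 0.0727), Prkd2 (-1.11, 0.103) and Slc8a2 (-1.45, 0.0777) did not pass, and without WT CpG 1 Prkd2 (-1.0, 0.0674) and Slc8a2 (-1.19, 0.0588) did not. Prkd2 also missed the threshold without WT CpG 3 (-1.08, 0.0503). Of the members not called, Bicra had the lowest change in WT, from 5.82 and 6.35 to 5.48, 5.35 and 5.54 (-0.63, limma adjusted p = 0.0592), and Selenow was higher by 0.32 in WT and 0.31 in DKO (0.126 and 0.178).

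**Figure D4:**
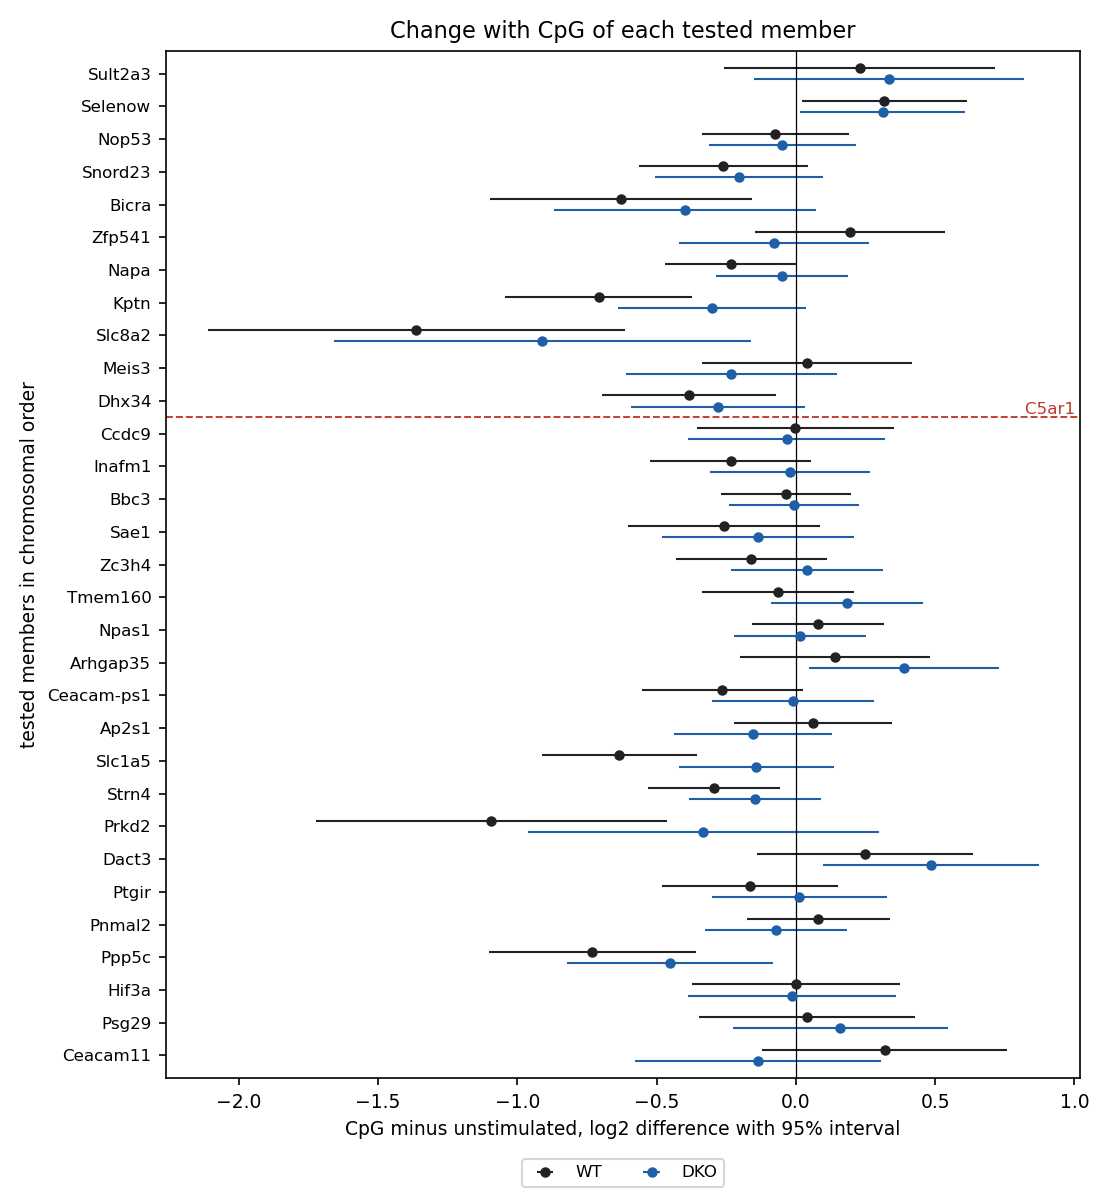
Change with CpG in log2 intensity (horizontal axis, points with 95% intervals) of each tested member in chromosomal order (vertical axis), in WT and in DKO, with the place of C5ar1 marked. Slc8a2, Prkd2, Ppp5c, Kptn and Slc1a5 fell in WT, and their DKO values lie nearer 0. These genes were picked by their calls in WT, and their change was not shown to differ between genotypes.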

How the data were processed

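RNA of splenic CD11c+ DCs was hybridised to 1 array per sample (10 arrays). The authors deposited 1 log2 intensity per probe set and array, computed by RMA (Affymetrix Expression Console), per the submitters' processing notes. For versions, build and annotation, nothing is given in the sources used here. A labelling kit is named for a first batch, but no sample is assigned to it, so title numbers (below or above 20) stood in for batches.

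Of 41345 probe sets, 23521 had 1 gene symbol, and 23328 of these matched a gene of the RefSeq table (GRCm38.p6, used for names, order and distances). The probe set with the highest mean stood for a gene. Genes above the array median on at least 2 arrays were tested. All 10 arrays entered 1 limma 3.58.1 model with a mean for each of 4 groups (lmFit, eBayes, R 4.3.3; 6 residual and 4.49 prior degrees of freedom), two-sided, with Benjamini-Hochberg adjustment over 13371 genes and calls at an adjusted p under 0.05. With 2 or 3 arrays a group, the number of arrays limits the precision. The pipeline was tested on simulated data. Figures were drawn with matplotlib 3.10.9.

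The 19 named genes of the alternatives were the landmarks, the 4 nearest tested members on each side, every member called with CpG, and others by genotype. Those by genotype were members called or among the 6 smallest p-values in a genotype comparison, the difference of the CpG effects included. The text also named up to 2 members per role list, and other members after their values were seen. The members, lists and rules were chosen with earlier results of these data known. Alternatives changed the filter, spread estimate, normalization, probe sets, window, gene start, title block, covariates and arrays left out.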

Additional observations from a re-analysis of the deposited data

How the results depend on the processing

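No paired analysis was possible because the labels give no replicate numbers and the numbers used here follow the order of deposit. Counts are of members called. Without stimulation 0 became 1 with the Y-linked signal as a covariate (Slc1a5), a fit that called 3.04% of all genes against 0.00748% in the main fit. After CpG 1 became 0 without a filter, with quantile normalization and with the neutrophil covariate. It became 2 with the splenic macrophage covariate (1.11% of all genes called) and 3 with the title block (Sae1, Tmem160 and Prkd2, 2.21%). With the Y-linked covariate it became 4 (Kptn, Slc8a2, Tmem160 and Prkd2, 5.98%). The main fit called 0.120% of all genes after CpG. Averaged over stimulation 1 became 0 with quantile normalization and with the neutrophil or macrophage covariate. It became 2 with the stricter filter (0.129% of all genes called) or with eBayes trend and robust (0.15%), and 3 with the title block (0.374%). With the Y-linked covariate it became 5, and 6.83% of all genes were called, against 0.0972% in the main fit. For CpG in WT 5 became 15 of 99 tested in the 5 Mb window and 4 with the mean over probe sets (Slc1a5 lost, 21.2% of all genes called). It became 6 with the title block, the Y-linked or the macrophage covariate (Bicra gained, 24.8%, 26.2% and 26.1%), against 21.6% in the main fit. For CpG in DKO 0 became 5 in that window. It became 1 with the title block, the Y-linked or the macrophage covariate (13.1%, 14.2% and 14.2%), against 10.3%. Leaving out each array gave 0 to 0 without stimulation and for the difference of the CpG effects, 0 to 1 after CpG, 0 to 2 averaged, 1 to 6 for CpG in WT and 0 to 2 for CpG in DKO. The larger window holds more genes; the cause of the other changes was not tested. The macrophage covariate was chosen after seeing the data. Over 19 named genes and 2142 values under alternatives, 2058 kept their side of the threshold, 46 lost and 38 gained a call. Most of the 2142 belong to results not called in the main fit, which could not lose a call. Tmem160 lost its call in 12 of 19 alternatives after CpG and in 11 of 19 averaged over stimulation. No called value changed sign, but 86 of the 2058 changed sign while passing in neither fit. Intensities near the array median limit what can be seen.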
